A study of Mus musculus with 8 samples.

Results

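The enzymes of the urea cycle and of the nitrogen metabolism linked to it in liver were examined as mRNAs in purified mouse liver mitochondria at 2 ages. The members were 8 genes, namely Cps1, Otc, Glud1 and Got2, whose enzymes work in the mitochondrial matrix, and Ass1, Asl, Arg1 and Got1, whose enzymes work in the cytosol. The selection rule used their function and place in the cell and no measured value, although earlier results of these data were known when the members were chosen. Every transcript row of a member was summed per gene, and all 8 members had at least 1 row among the 6449 nuclear genes with counts in the table.

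The RNA came from WT C57BL/6N mice, with 4 libraries of liver mitochondria at 12 W (12 weeks of age) and 4 at 65 W, each called a biological replicate in the labels. The mitochondria were treated with a nuclease, which the study used to clear nucleic acids lying outside them. They were then purified on a sucrose gradient before lysis. Per the labels, all 8 cDNA libraries were PCR-amplified, barcoded and read on a single Nanopore flow cell. The study describes the 12 W cohort as female and the sources used here do not give the sex of the 65 W mice, so age and sex cannot be told apart.

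The urea cycle turns the ammonia released by amino acid breakdown into urea and runs mainly in the hepatocytes around the portal vein. Its first steps take place in the mitochondrial matrix and its last steps in the cytosol, with ornithine and citrulline carried across the inner membrane. All these enzymes are encoded in the nucleus and made on cytosolic ribosomes, and the matrix enzymes are imported with the help of an N-terminal presequence, typically rich in arginine and lysine and poor in acidic residues. The mRNAs of some imported proteins are translated at the mitochondrial surface, which is why both compartments were compared here. Since the nuclease was meant to remove RNA outside the mitochondria, the counts below are of mRNAs left after this treatment. How much surface mRNA it removed was not measured, so the comparison cannot show which mRNAs were at the surface.

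Coding starts of 3 members are shown because the matrix enzymes carry their import signal there. They were read from the GENCODE M21 transcripts of GRCm38, 5′ to 3′ from the start codon, and cover 30 codons each, with arginine and lysine codons in capitals.
Otc: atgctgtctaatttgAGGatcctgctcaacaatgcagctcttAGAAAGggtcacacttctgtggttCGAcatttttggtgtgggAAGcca
Got2: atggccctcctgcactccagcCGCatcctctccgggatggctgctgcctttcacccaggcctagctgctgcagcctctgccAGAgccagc
Got1: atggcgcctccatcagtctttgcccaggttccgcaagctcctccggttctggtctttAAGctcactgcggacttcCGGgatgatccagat
Among the first 30 codons, the matrix enzyme Otc had 5 codons for arginine or lysine, Glud1 3 and Got2 2. The cytosolic Ass1 had 2, Asl 3, Arg1 5 and Got1 2, so this count alone did not separate the compartments. Codons for aspartate or glutamate numbered 0 to 2 in these matrix enzymes (0 in Otc, 2 in Glud1 and 0 in Got2) and 2 to 4 in the cytosolic enzymes (3 in Ass1, 3 in Asl, 2 in Arg1 and 4 in Got1). Got2 and Got1 both encode aspartate aminotransferases, of the matrix and of the cytosol, and the latter has 4 acidic codons where the former has none.

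The table held unnormalized counts of reads per transcript. For its heatmap and volcano plot the study scaled the counts to Rnr2, and that scaling was not used here. Totals ranged from 104554 to 191092 counts at 12 W and from 12630 to 105252 at 65 W, most of them on mitochondria-encoded RNAs. Levels below are counts per 10000 nuclear counts after removal of 17 nuclear rows that copy mitochondria-encoded genes. These remaining counts numbered 16295, 7604, 16947 and 20669 in 12W-1 to 12W-4 and 1523, 6109, 3257 and 11091 in 65W-1 to 65W-4, and they made up between 7.11% and 14.4% of each library. The library 65W-4 alone held 50.5% of the 65 W nuclear counts. Lars2 took 36.7% of them in 65W-1 and 11.3% to 24.7% in the other libraries. All 8 hepatocyte markers had counts, with a summed level of 1462 to 1930 per 10000 at 12 W and 1197 to 1654 at 65 W. Alb, which encodes albumin, accounted for 983 ± 127 per 10000 at 12 W and 801 ± 113 at 65 W (SD, n = 4). Markers of Kupffer cells gave 14.2 to 27.6 per 10000 at 12 W and 14.7 to 39.9 at 65 W. Markers of blood gave 0 to 28.2 and 0 to 4.51, and those of stellate, endothelial and bile duct cells 33, 26 and 4 counts in all libraries. The RNA was measured in bulk, so fewer hepatocytes, less RNA per cell and a different carry-over of cytosolic RNA into the fraction cannot be told apart in any value below.

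The member mRNAs were scarce. All 8 together gave 241 counts, 158 at 12 W and 83 at 65 W, which was 0.289% of the nuclear counts and 0.0292% of all counts. Only Cps1 and Ass1 were counted in every library. Of the 64 pairs of a member and a library, 14 were at 0, with 5 of 32 at 12 W and 9 of 32 at 65 W, and 7 reached 10 counts. The median nuclear gene had 2 counts in total, so even the rarest member, Got1 with 5 counts, stood above it. Alb had 7893 counts, 99.9 times as many as Ass1 and 184 times as many as Cps1.

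Among nuclear genes ordered by summed counts, Ass1 ranked 111 with 79 counts, Arg1 178 with 49 and Cps1 204 with 43. Glud1 ranked 332 with 27 counts, Otc 486 with 17 and Asl 609 with 13, followed by Got2 at 898 with 8 and Got1 at 1331 with 5. The cytosolic Ass1 and Arg1 thus came first and the matrix enzymes Cps1, Glud1 and Otc next, and the last place also went to a cytosolic enzyme.

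**Figure D1:**
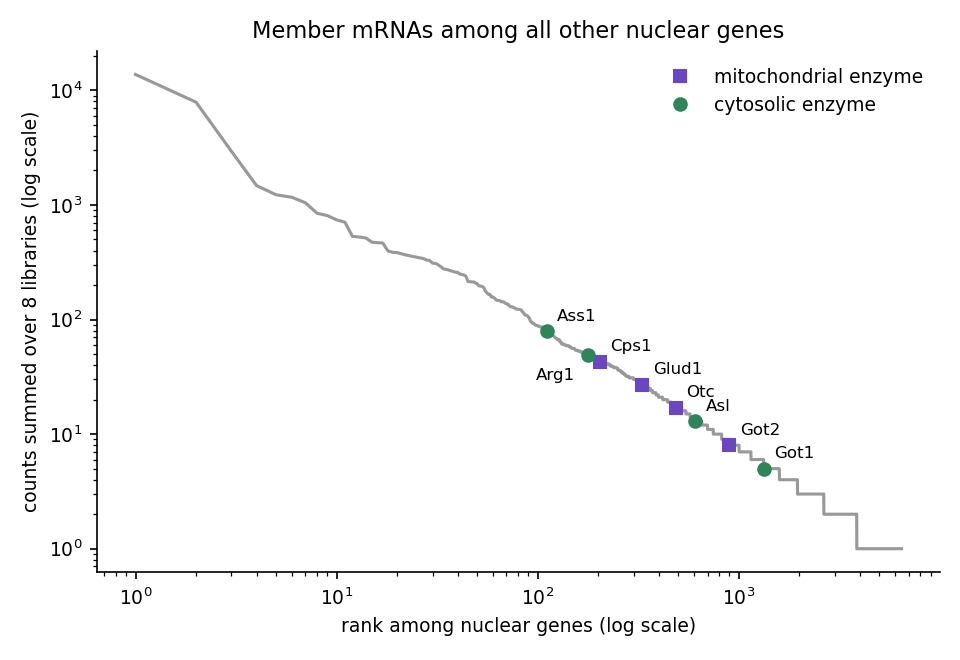
Counts summed over the 8 libraries (y axis, log scale) against the rank of each nuclear gene (x axis, log scale), with the grey line for all 6449 genes, squares for the 4 matrix enzymes and circles for the 4 cytosolic enzymes. The members span ranks 111 (Ass1) to 1331 (Got1), with a cytosolic enzyme at both ends.

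Levels between genes were compared per kb of the main transcript, over the pooled 8 libraries and with exact Poisson intervals of 95%. Per 10000 nuclear counts and kb, Ass1 had 5.58 (4.42 to 6.95) and Arg1 3.97 (2.94 to 5.25), and the intervals of this pair overlapped. Next came Glud1 with 0.954 (0.629 to 1.39), Cps1 with 0.927 (0.671 to 1.25), Otc with 0.878 (0.511 to 1.41) and Asl with 0.854 (0.455 to 1.46), which could not be ordered at this depth. Got2 had 0.379 (0.164 to 0.746) and Got1 0.291 (0.0945 to 0.679), again with overlapping intervals. This order rests mostly on 12 W, which held 61515 of the 83495 nuclear counts. As a mean over the 65 W libraries, Got2 was at 1.69 per kb, above Cps1 at 1.42, Asl at 1.26 and Otc at 0.468, against 0.297 at 12 W, with the 2 counts of 65W-1 setting this mean. The pooled intervals of Ass1 and Arg1 lay above those of the 6 others. Scaling by length lowered the place of Cps1, whose main transcript has 5555 nt against 1477 nt for Arg1. Since a Nanopore read comes from 1 cDNA molecule whatever its length, the order by unscaled counts is the alternative reading, and there Cps1 follows Arg1 directly. The cDNA was PCR-amplified before sequencing, and the part of transcript length in that step was not tested, so unscaled counts can still depend on length.

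The counts were assigned almost entirely to 1 transcript per gene. The 8 members have 31 annotated transcripts, of which 11 had a row, and 234 of the 241 counts lay on the main transcripts. Asl was the exception, with 5 of its 13 counts on a shorter transcript of 864 nt. Nearly identical genes exist for Ass1 (Gm5424, 99.5% identical over 1240 nt), Glud1 (Glud-ps, 97.6% over 656 nt) and Got2 (Got2-ps1, 99.1% over 1293 nt, and Gm10874, 98.8% over 1637 nt). None of the 9 such genes found had a row in the table used here, so any reads shared with them cannot be told apart from reads of the members.

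Of the matrix enzymes, Cps1 encodes carbamoyl phosphate synthetase 1, which joins ammonia and bicarbonate in the first and rate-limiting step of the cycle. In GRCm38 the gene spans 38 exons on the plus strand of chromosome 1 (67123026 to 67231259). Cps1 had 7, 5, 9 and 10 counts in 12W-1 to 12W-4 and 2, 1, 4 and 5 in 65W-1 to 65W-4. Its levels were 4.30, 6.58, 5.31 and 4.84 per 10000 at 12 W and 13.1, 1.64, 12.3 and 4.51 at 65 W. The 12 W libraries lay close together, whereas at 65 W the libraries with the fewest nuclear counts, 65W-1 and 65W-3, lay above every 12 W library and 65W-2 below. The mean level was 5.26 ± 0.973 at 12 W and 7.89 ± 5.70 at 65 W (SD, n = 4), and the ratio of pooled counts was 1.08 (95% interval 0.507 to 2.17, exact conditional on the sum), or 0.848 (0.337 to 1.89) without 65W-3. Such intervals cover counting error only and leave out the variation between the libraries of an age. Amplified reads without molecular identifiers are not independent molecules, so the intervals can be too narrow even for counting error.

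Otc encodes ornithine transcarbamylase, which forms citrulline from carbamoyl phosphate and ornithine in the matrix. The gene is X-linked (10252305 to 10321024, plus strand). Otc had 0, 3, 5 and 5 counts at 12 W and 0, 1, 0 and 3 at 65 W, with levels of 0, 3.95, 2.95 and 2.42 and of 0, 1.64, 0 and 2.70 per 10000. The zeros of 65W-1 and 65W-3 rest on few nuclear counts and allow up to 19.7 and 9.21 per 10000, while the 0 in 12W-1 allows up to 1.84, if 3 counts are taken as the limit. Otc was the only member with a lower mean at 65 W, 1.09 ± 1.33 against 2.33 ± 1.68 per 10000 (SD, n = 4), and its groups overlapped.

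Glud1 encodes glutamate dehydrogenase 1, which releases ammonia from glutamate in the matrix. It was annotated at chromosome 14, 34310727 to 34345265, plus strand. Glud1 had 6, 2, 2 and 9 counts at 12 W and 1, 0, 5 and 2 at 65 W. Its level was 3.68, 2.63, 1.18 and 4.35 per 10000 at 12 W and 6.57, 0, 15.4 and 1.80 at 65 W. The 65 W libraries thus reached both above and below the whole range at 12 W, and 65W-3 alone set the higher mean of 5.93 ± 6.86 against 2.96 ± 1.38 (SD, n = 4). Without 65W-3, the ratio of pooled counts fell from 1.18 (0.446 to 2.82) to 0.519 (0.0983 to 1.76).

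Got2 encodes the mitochondrial aspartate aminotransferase, which passes the amino group of glutamate to aspartate. Chromosome 8 carries the gene at 95864134 to 95888547 on the minus strand. Got2 had exactly 1 count in each 12 W library and 2, 0, 1 and 1 at 65 W. Its highest level, 13.1 per 10000 in 65W-1, came from 2 counts, and the mean was 0.751 ± 0.381 at 12 W and 4.28 ± 6.04 at 65 W (SD, n = 4). With 4 counts at each age, the ratio of pooled counts was 2.80 with an interval of 0.521 to 15.0. It was 1.504 (0.136 to 10.5) without 65W-1 and 0.894 (0.0182 to 9.04) without both 65W-1 and 65W-3.

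Of the cytosolic enzymes, Ass1 encodes argininosuccinate synthase 1, which joins citrulline and aspartate. Located on the plus strand of chromosome 2 (31470207 to 31520672), it was the most counted member. Ass1 had 13, 8, 11 and 16 counts at 12 W and 2, 5, 2 and 22 at 65 W. Its level was 7.98, 10.5, 6.49 and 7.74 per 10000 at 12 W and 13.1, 8.18, 6.14 and 19.8 at 65 W. Both ages overlapped, with 65W-3 lowest and 65W-4 highest of all 8 libraries, and the mean was 8.18 ± 1.69 at 12 W and 11.8 ± 6.10 at 65 W (SD, n = 4). The ratio of pooled counts was 1.81 (1.11 to 2.90), but 65W-4 held 71.0% of the 65 W counts of Ass1, and without it the ratio was 1.06 (0.457 to 2.18).

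Asl encodes argininosuccinate lyase, which releases arginine and fumarate. The gene is on the minus strand of chromosome 5 (130011258 to 130029247). Asl had 0, 1, 0 and 5 counts at 12 W and 0, 1, 1 and 5 at 65 W, which were 0, 1.32, 0 and 2.42 per 10000 and 0, 1.64, 3.07 and 4.51. The same 5 counts thus stood for 2.42 per 10000 in 12W-4 and 4.51 in 65W-4. The mean of 2.30 ± 1.93 at 65 W lay above that of 0.934 ± 1.17 at 12 W (SD, n = 4) with overlapping groups.

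Arg1 encodes arginase 1, which splits arginine into urea and ornithine and closes the cycle. It maps to the minus strand of chromosome 10 (24915221 to 24927484). Arg1 had 8, 3, 13 and 11 counts at 12 W and 0, 4, 3 and 7 at 65 W. Its level was 4.91, 3.95, 7.67 and 5.32 per 10000 at 12 W and 0, 6.55, 9.21 and 6.31 at 65 W. Apart from 65W-1, where 0 counts allow a level of up to 19.7, the 65 W libraries lay near the 12 W libraries. The mean was 5.46 ± 1.58 at 12 W and 5.52 ± 3.91 at 65 W (SD, n = 4), the closest pair among the members.

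Got1 encodes the cytosolic aspartate aminotransferase. Its locus is on the minus strand of chromosome 19 (43499752 to 43524605). Got1 had 0, 0, 1 and 1 counts at 12 W and 0, 0, 0 and 3 at 65 W, so its level at 65 W, 0.676 ± 1.35 against 0.268 ± 0.313 per 10000 at 12 W (SD, n = 4), rested on 65W-4 alone. Its ratio of pooled counts, 4.20, had an interval of 0.481 to 50.3.

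**Figure D2:**
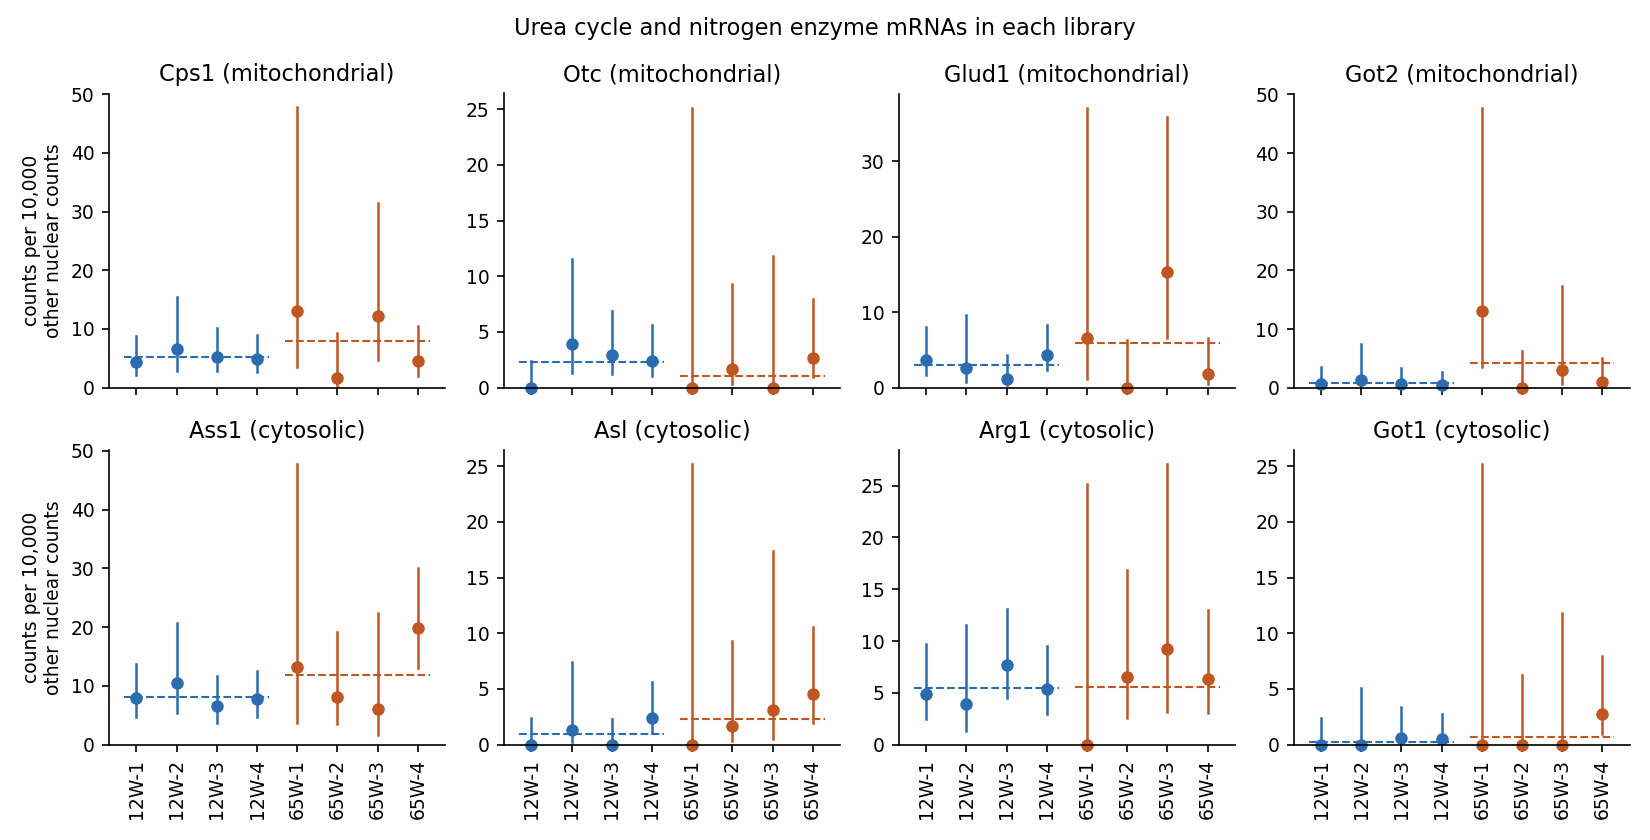
Level of each member in every library (y axis, counts per 10000 nuclear counts without the copies of mitochondria-encoded genes), with libraries on the x axis (12 W blue, 65 W orange), points for levels, vertical lines for Wilson 95% intervals and dashed lines for group means; the y scale differs between panels. The 65 W points are spread more widely than the 12 W points for 7 of the 8 members, and the groups overlap in each panel.

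Across the members, the mean was higher at 65 W for 7 of 8 and the SD was larger at 65 W for 7 of 8. The groups overlapped for all 8 members, so 0 of 8 separated the ages, beside 6.22% of the 1592 nuclear genes with at least 5 counts. The 65 W libraries had fewer nuclear counts (1523 to 11091) than most 12 W libraries (7604 to 20669), and the part of depth in the larger spread was not tested.

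The age difference was tested with edgeR's quasi-likelihood test over all nuclear genes, with Benjamini-Hochberg adjustment and a threshold of 0.05. The planned filter on low counts kept 98 genes, of which 6 (6.12%) passed, 4 higher and 2 lower at 65 W and 21 at an unadjusted p under 0.05. No member was among the 98 genes, so this test gave no p for any of them. A filter of at least 5 counts over all libraries, chosen after the data were seen, kept 1592 genes with all 8 members. Of these, 11 (0.691%) passed and 122 had an unadjusted p under 0.05, and without any filter 10 of 6449 genes (0.155%) passed with no member among them. The members contributed 0 of 8 at either level in edgeR. DESeq2, which passed 0.377% of the genes, also gave 0 of 8 at either level. With limma-voom, which passed 0.879%, the members gave 0 of 8 after adjustment and 2 of 8 before it, namely Asl and Got1. Before adjustment, the share of all 1592 genes with a p under 0.05 was 7.66% with edgeR, 2.58% with DESeq2 and 13.3% with limma-voom. The edgeR fit over the 1592 genes took the variance of each gene almost wholly from all genes together. A gene's own spread between libraries thus hardly entered its p or interval. For Mup14, edgeR gave an unadjusted p of 0.040 over the 98 genes and 1.5e-09 over the 1592. There DESeq2 gave 0.37 and limma-voom 6.4e-06.

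In the edgeR fit over the 1592 genes the log2 fold change, 65 W over 12 W, was 0.16 (SE 0.57) for Cps1, with a 95% interval of -0.97 to 1.29. For Otc it was -0.26 (interval -1.99 to 1.47) and for Glud1 0.35 (interval -1.03 to 1.72). The matrix enzyme with the largest estimate was Got2, at 1.40 (interval -0.66 to 3.47). Among the cytosolic enzymes, Ass1 had 0.73 (SE 0.43, interval -0.11 to 1.58, edgeR adjusted p = 0.557). Asl had 1.57 (SE 0.86, interval -0.11 to 3.25, edgeR adjusted p = 0.557), Arg1 0.16 (interval -0.89 to 1.22) and Got1 1.68 (interval -0.70 to 4.06). All 8 intervals included 0, and those of Asl, Got2 and Got1 extended past 3 on the log2 scale. The median over the members was 0.54, with 7 of 8 (87.5%) above 0, beside a median of -0.14 and 704 of 1592 (44.2%) above 0 over all genes tested. For 3 members the sign depended on the scaling, since with TMM factors the values were -0.19 for Cps1, -0.01 for Glud1 and -0.18 for Arg1, while the median of all genes moved to -0.46. With limma-voom the median was 0.62 for the members and 0.43 for all genes.

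**Figure D3:**
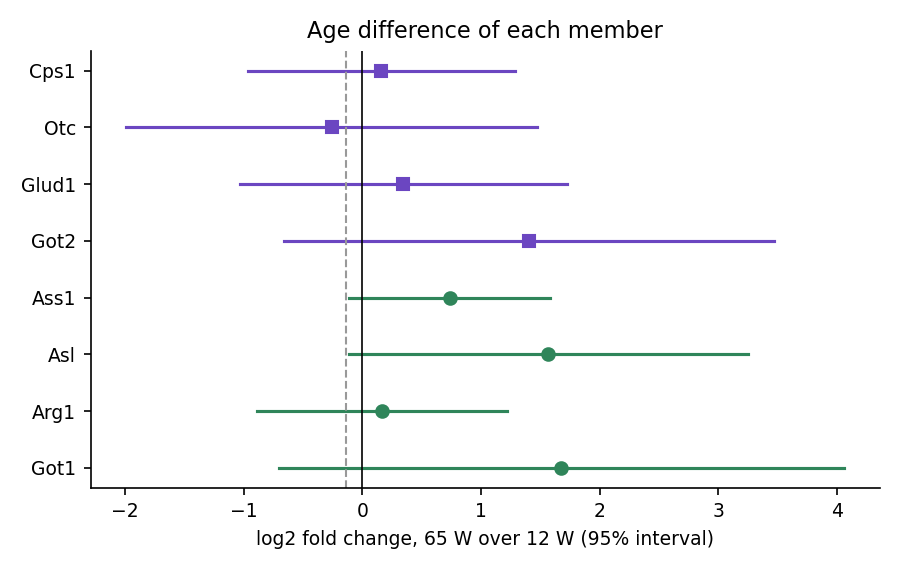
Log2 fold change of each member, 65 W over 12 W (x axis), with its 95% interval from edgeR's quasi-likelihood test over the 1592 nuclear genes with at least 5 counts. Squares are matrix enzymes and circles cytosolic enzymes, and the dashed line marks the median of all genes at -0.14; every interval includes 0.

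The compartments were compared within each library by the share of member counts that fell on the 4 matrix enzymes, which does not depend on the scaling. At 12 W this share was 40.0% in 12W-1 (14 of 35 counts), 47.8% in 12W-2 (11 of 23), 40.5% in 12W-3 (17 of 42) and 43.1% in 12W-4 (25 of 58). At 65 W it was 71.4% in 65W-1 (5 of 7, Wilson 95% interval 35.9% to 91.8%), 16.7% in 65W-2 (2 of 12, 4.70% to 44.8%), 62.5% in 65W-3 (10 of 16, 38.6% to 81.5%) and 22.9% in 65W-4 (11 of 48, 13.3% to 36.5%). The 12 W shares lay within a narrow band, but their Wilson intervals were wide, from a lowest end of 25.6% (12W-1) to a highest of 67.0% (12W-2). The 65 W shares fell on both sides of this band, with 65W-1 and 65W-3 above and 65W-2 and 65W-4 below. The intervals of 65W-1, 65W-2 and 65W-3 reached into the band, and only that of 65W-4 lay wholly below it. Among the 65 W libraries, only the intervals of 65W-3 and 65W-4 did not overlap, and these intervals treat reads as independent draws. Ass1 alone held 22 of the 48 counts of 65W-4. The high shares came from the libraries with the fewest nuclear counts, 1523 and 3257, and the low shares from those with 6109 and 11091, and the part of depth in this split was not tested.

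**Figure D4:**
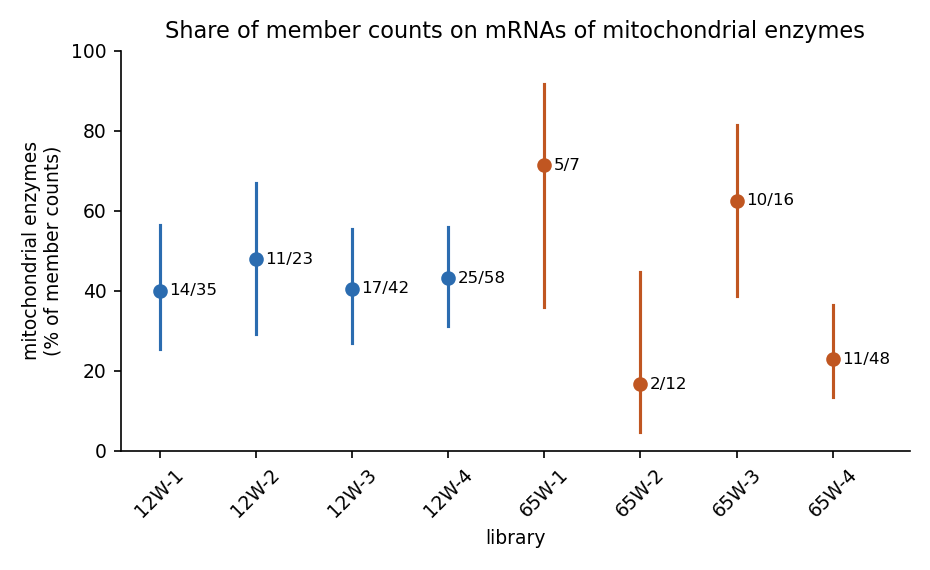
Share of member counts on the 4 matrix enzymes (y axis, percent) in each of the 8 libraries (x axis), with Wilson 95% intervals and the counts written beside each point. The 12 W libraries lie between 40.0% and 47.8%, and the 65 W libraries between 16.7% and 71.4%.

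As a log2 ratio of matrix to cytosolic member counts, the mean was -0.42 ± 0.21 at 12 W and -0.50 ± 1.80 at 65 W (SD, n = 4), a difference far smaller than the spread at 65 W. Pooled over the libraries of an age, the share was 42.4% (35.0% to 50.2%) at 12 W and 33.7% (24.5% to 44.4%) at 65 W. The 65 W value rested on 65W-4, which held 48 of the 83 counts, and was 48.6% (33.0% to 64.4%) without it. The mean over libraries was 42.9% ± 3.59 at 12 W and 43.4% ± 27.6 at 65 W (SD, n = 4), so no direction could be read from the pooled shares. Over all 8 libraries, the matrix enzymes gave 95 counts and the cytosolic enzymes 146, a share of 39.4% (33.5% to 45.7%). No library of whole liver RNA was analysed here, so these shares cannot be related to those of the tissue.

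The summed level of the matrix enzymes was 11.3 ± 2.56 per 10000 at 12 W and 19.2 ± 14.8 at 65 W (SD, n = 4), with a ratio of pooled counts of 1.17 (0.724 to 1.84). Without 65W-3 this ratio was 0.883 (0.494 to 1.503), and without both 65W-1 and 65W-3 it was 0.694 (0.351 to 1.27). That of the cytosolic enzymes was 14.8 ± 1.41 at 12 W and 20.3 ± 8.96 at 65 W, with a ratio of 1.69 (1.19 to 2.39). The latter ratio rested on 65W-4, and was 1.12 (0.634 to 1.87) without this library. Means of levels and ratios of pooled counts differ for the matrix enzymes because a mean weights the shallow libraries as much as the deep ones.

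Other genes were taken from 6 lists with 72 genes, of which 60 had counts and 39 had at least 5. The lists covered nitrogen metabolism, its regulators and genes of periportal and pericentral hepatocytes, and some genes were shared between lists. With edgeR, 0 of the 39 passed the threshold and 4 had an unadjusted p under 0.05 (Gls2, Mat1a, Pigr and Tat). The edgeR shares over all 1592 genes were 0.691% and 7.66%. DESeq2 and limma-voom also passed 0 of the 39, with 1 and 8 at an unadjusted p under 0.05, beside the shares of 2.58% and 13.3% over all 1592 genes given above. Genes that support the cycle were rarer than most members, with 21 counts on 5 of 7 genes. Among them Slc25a13, the aspartate and glutamate carrier, had 8 counts and Slc25a15, the ornithine carrier, had 5. Car5a, the carbonic anhydrase that supplies bicarbonate in the matrix, had 4.

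The list on glutamate, glutamine, ornithine, alanine and proline had 194 counts on 12 of 15 genes. The glutamine transporter Slc38a3 led it with 61 counts, ahead of the amino acid transporter Slc38a4 with 48 and the ornithine aminotransferase Oat with 20. Genes of amino acid breakdown had 486 counts on 29 of 33 genes. Bhmt, which methylates homocysteine, was with 87 counts the most counted of them and the only one of this list also among the 98 genes, with a log2 fold change of 0.05 there (edgeR adjusted p = 0.975). Mat1a, which makes S-adenosylmethionine, had 60 counts and a log2 fold change of 1.04 over the 1592 genes (edgeR adjusted p = 0.557). Tdo2, which opens the ring of tryptophan, had 50 counts and 0.96 (edgeR adjusted p = 0.557). The median log2 fold change of the 17 genes of amino acid breakdown with at least 5 counts was 0.76, with 14 above 0, beside -0.14 over all genes tested. In the other lists the median was 1.03 for support of the cycle (2 of 2 above 0), 0.30 for glutamate and related amino acids (6 of 10), -0.61 for regulators (0 of 3), 0.22 for periportal genes (3 of 6) and 0.09 for pericentral genes (3 of 6). With limma-voom the median over all genes was 0.43 and that of amino acid breakdown 0.87, while that of the regulators was 0.42 (3 of 3).

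Regulators of the pathway were near the limit of detection, with 31 counts on 6 of 7 genes. The glucagon receptor Gcgr had 10 counts, and the transcription factors Hnf4a and Cebpa had 8 and 6. Other periportal hepatocyte genes had 368 counts on 7 of 7 genes, led by Pigr, the polymeric immunoglobulin receptor, with 271. Pigr was at 37.0 ± 10.03 per 10000 at 12 W and 22.2 ± 8.13 at 65 W (SD, n = 4), with a log2 fold change of -0.78 over the 98 genes (edgeR adjusted p = 0.172). Pck1, the gluconeogenic enzyme, had 39 counts and Cyp2f2 36. Pericentral hepatocyte genes had 280 counts on 7 of 9 genes, led by Cyp2e1 with 157 and a log2 fold change of -0.53 over the 98 genes (edgeR adjusted p = 0.574), and followed by Cyp1a2 with 64. Both zones of the liver lobule were represented over the pooled libraries, but 65W-1 had 0 counts on the pericentral genes. With edgeR, 0 of the 6 periportal and 0 of the 6 pericentral genes with at least 5 counts passed the threshold. Over all 1592 genes 0.691% passed.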

How the data were processed

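RNA of sucrose-gradient purified liver mitochondria (4 libraries at 12 W, 4 at 65 W) was reverse transcribed, PCR-amplified, barcoded and sequenced by Nanopore. The values are unnormalized counts per Ensembl transcript, deposited by the authors and made with an Epi2Me Labs workflow. The submitters' processing notes name minimap2, SAMtools, edgeR, GRCm38 and mm10. The counting tool and annotation release are not given in the sources used here. The libraries carry no molecular identifiers, so amplified copies of a molecule are counted separately.

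Of 8688 rows, 8591 matched GENCODE M21 (29 of them after removal of the version number). The 97 others (0.0946% of counts) were left out. A row was treated as a copy of a mitochondria-encoded gene at 80% identity or more over 100 nt or more (blastn 2.17.0 against the mitochondria-encoded transcripts). The 17 copies held 10.9% of counts. Rows were summed per gene, and the library size was the remaining nuclear counts. Ratios of pooled counts have exact conditional intervals, shares Wilson intervals and levels per kb Poisson intervals, all at 95%. The limit for a count of 0 was 3 counts.

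Tests were edgeR 4.0.16 quasi-likelihood fits in R 4.3.3, with filterByExpr as planned and, since no member was kept, with at least 5 counts over all libraries. DESeq2 1.42.0, limma-voom (limma 3.58.1), other scalings, other filters, the most abundant transcript, a replicate block and omission of each library were alternatives. The fits were also run on simulated counts with the same dispersion for every gene. That run does not cover noise that differs between genes. All 12 pairs of libraries within an age differed by more than sampling noise (chi-square test over genes, largest p = 3.09e-05). Whether each library came from its own animal is stated only as biological replicate in the labels. Planned profiles of genes similar to a member were not computed, since no member was kept by the planned filter. The members and lists were chosen with earlier results of these data known. All members were named, and the 3 most counted genes of each pathway list, beside any past the threshold. The coding start of Cps1 is not reported here.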

Additional observations from a re-analysis of the deposited data

Results flagged for a closer look

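In 12W-2, Got2 was at 1.32 per 10000, farther from the other 12 W libraries than a Dixon test at the 95% level allows, although each 12 W library had exactly 1 count and 12W-2 only had the smallest number of nuclear counts of its group. In 65W-4, Got1 was at 2.70 per 10000 from 3 counts, while the 3 other 65 W libraries had 0. These were 2 of the 22 groups of 4 values examined, and chance marks about 5% of such groups where values are continuous. With counts of 0 to 3, as here, a group of 3 zeros and 1 other value always meets this criterion, so that rate does not apply to Got1 or Got2.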

How the results depend on the processing

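The alternatives gave 115 values for the members, 17 for Ass1 and 14 for each of the others. None of these passed the threshold, and the lowest adjusted p was 0.142 (Asl, limma-voom). The direction of 9 of these values reversed, with TMM factors for Cps1 (-0.19), Glud1 (-0.0074) and Arg1 (-0.18), with limma-voom for Otc (0.55) and Glud1 (-0.031), without 65W-1 for Cps1 (-0.021), without 65W-3 for Cps1 (-0.22) and Glud1 (-0.87) and without 65W-4 for Got1 (-1.87), all as log2 fold changes. Leaving out each library in turn gave -0.22 to 0.53 for Cps1, -1.13 to -0.03 for Otc, -0.87 to 0.91 for Glud1, 0.52 to 2.00 for Got2, 0.07 to 0.93 for Ass1, 0.85 to 3.07 for Asl, 0.03 to 0.37 for Arg1 and -1.87 to 2.13 for Got1. Ass1 passed the planned filter without 65W-2, without 65W-3 or without both libraries under 50000 counts, with log2 fold changes of 0.91, 0.90 and 0.94 and adjusted p of 0.374, 0.198 and 0.273. Without both of these libraries, 65W-1 and 65W-3, the 65 W minus 12 W difference in level turned from 2.63 to -2.18 for Cps1, from 2.97 to -2.06 for Glud1 and from 7.89 to -4.70 for the matrix enzymes, and the difference in their log2 ratio to the cytosolic enzymes moved from -0.09 to -1.62. The 6 calls over 98 genes became 10 with no filter, 10 without those libraries, 8 with the replicate block and 5 to 10 without each library (10 without 12W-4). The 11 calls over 1592 genes became 6 with TMM factors, 6 with DESeq2, 8 with the replicate block and 8 to 14 without each library. The cause was not tested.

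No pairing of the libraries by replicate number was seen, as deviations of same-numbered libraries correlated at -0.12, -0.18, -0.23 and 0.16. With the few counts of the shallow libraries, these values cannot exclude a pairing. With the block the log2 fold change was 0.26 for Cps1 and 0.58 for Ass1 (edgeR adjusted p = 0.990), and no call of a member changed. At least 10 counts in every library, DESeq2, limma-voom, most scalings and the most abundant transcript gave no member value under the planned filter, which no member passed with all 8 libraries. With 5 to 79 counts per member, depth limits each value here.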
